A study of Mus musculus with 7 samples.

Results

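Genes that mark the retinal pigment epithelium were followed in microglia sorted from the retinae of adult mice, before and after laser injury. The 10 genes were Rpe65, Lrat, Rdh5, Rgr, Best1, Ttr, Pmel, Tyrp1, Dct and Mlana, and each was found by its symbol among the 40743 genes of the expression table. All 7 libraries came from mice labelled Irf8 KO, which carry Irf8-/- in every cell and Cx3cr1GFP/+, a green reporter in the fractalkine receptor gene of microglia. The unlasered group held 3 libraries, and the lasered group held 4 libraries taken 7 days after laser photocoagulation, a burn through the outer retina that starts choroidal neovascularisation. Each library was made from CD45low CD11b+ Cx3cr1GFP/+ Ly6C- Ly6G- cells sorted from retinae of 3 to 4 pooled mice, on average 10000 cells. Whether libraries shared a sorting session was not given. In lasered mice only the central 70% of the retina was sorted, so laser and retinal region cannot be told apart. Wild-type mice were not analysed here, and the ages of the pooled mice were not given beyond adult.

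The retinal pigment epithelium is a single layer of pigmented cells between the photoreceptors and the choroid. It turns all-trans retinol back into 11-cis retinal for the rods and cones, absorbs stray light with melanin, engulfs shed outer segments and forms the outer blood-retinal barrier. Microglia are macrophages and are not known to run the visual cycle or to make melanin. Retinae were peeled from the eye before sorting, and the gate did not select for pigment cells.

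Values are CPM, the reads of a gene scaled to a total of 1000000 reads in each library. Totals were between 20427558 and 36022954 reads in the unlasered and between 37133297 and 45919042 reads in the lasered libraries, so the lasered libraries were the deeper ones. A level of 3 reads, used here as the floor, was 0.0653 to 0.147 CPM depending on the library, and intervals and floors cover counting error only. Irf8 itself was at 509 ± 20.6 CPM (SD, n = 3) in unlasered and 496 ± 57.6 CPM (SD, n = 4) in lasered libraries. Its reads were listed only jointly with the overlapping gene Gm20388 and with no division by exon, so this value checks nothing about the deletion. The 10 microglial markers summed to between 24893 and 32118 CPM in all libraries, among them Csf1r, the receptor for colony stimulating factor 1, at 7079 to 10434 CPM.

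The promoters of 5 members are shown because they hold a short motif of MITF or OTX2 or of both, the transcription factors that set up the pigment epithelium and whose own genes are described further on. The RefSeq table for GRCm38.p6 held the promoters of 7 of the 10 members, from 250 bases before to 50 bases after the start of the gene. Both strands were searched. MITF binds CATGTG, which reads as CACATG on the other strand, and it also binds the palindrome CACGTG. OTX2 binds TAATCC, which reads as GGATTA on the other strand. None of these motifs overlapped another in the members. Capitals mark the matches, and each sequence runs 5′ to 3′ on the strand of its gene: Rpe65 at chr3:159598931-159599230 on the plus strand, Tyrp1 at chr4:80833963-80834262 on the plus strand, Dct at chr14:118052197-118052496 on the minus strand, Rgr at chr14:37048965-37049264 on the minus strand and Best1 at chr19:10001584-10001883 on the minus strand.
Rpe65: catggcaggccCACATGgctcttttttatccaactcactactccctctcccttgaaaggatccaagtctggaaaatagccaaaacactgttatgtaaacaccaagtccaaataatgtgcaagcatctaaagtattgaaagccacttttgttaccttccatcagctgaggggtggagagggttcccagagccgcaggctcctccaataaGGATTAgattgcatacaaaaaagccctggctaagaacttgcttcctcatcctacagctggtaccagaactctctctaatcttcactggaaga
Tyrp1: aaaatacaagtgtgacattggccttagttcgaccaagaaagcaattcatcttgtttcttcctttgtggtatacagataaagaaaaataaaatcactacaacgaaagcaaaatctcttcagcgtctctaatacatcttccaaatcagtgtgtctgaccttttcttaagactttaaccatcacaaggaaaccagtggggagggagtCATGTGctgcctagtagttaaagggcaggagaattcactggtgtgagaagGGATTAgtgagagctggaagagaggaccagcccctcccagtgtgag
Dct: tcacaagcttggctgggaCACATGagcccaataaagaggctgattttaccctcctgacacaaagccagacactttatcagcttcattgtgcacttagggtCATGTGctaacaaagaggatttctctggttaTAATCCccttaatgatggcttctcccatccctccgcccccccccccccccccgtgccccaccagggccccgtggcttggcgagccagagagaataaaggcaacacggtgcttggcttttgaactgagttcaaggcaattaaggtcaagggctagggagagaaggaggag
Rgr: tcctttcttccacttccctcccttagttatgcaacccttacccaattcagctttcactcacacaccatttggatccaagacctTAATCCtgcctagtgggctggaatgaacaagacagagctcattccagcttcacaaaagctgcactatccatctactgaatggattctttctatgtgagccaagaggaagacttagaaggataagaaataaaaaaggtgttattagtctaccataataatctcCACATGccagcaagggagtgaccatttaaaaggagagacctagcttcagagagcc
Best1: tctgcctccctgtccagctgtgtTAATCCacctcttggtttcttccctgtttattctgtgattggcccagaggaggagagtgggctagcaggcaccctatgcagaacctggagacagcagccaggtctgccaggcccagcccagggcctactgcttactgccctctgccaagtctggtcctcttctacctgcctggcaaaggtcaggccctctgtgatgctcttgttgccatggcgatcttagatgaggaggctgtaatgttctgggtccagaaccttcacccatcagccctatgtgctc
CATGTG was found in 4 of the 7 promoters, and 14.2% of 32851 promoters of the same length held it. Counted with the first transcribed base as 1 and no 0, matches began at -239 in Rpe65, at -46 in Tyrp1, at -5 in Rgr and at -232 and -150 in Dct. TAATCC was found in 5 of the 7 promoters, at -42 in Rpe65, at 5 in Tyrp1, at -119 in Dct, at -227 in Best1 and at -167 in Rgr, while 7.06% of all promoters held it. CACGTG was in 0 of the 7 and in 7.15% of all promoters. A match describes the letters of these windows and is not a measured binding site. The Best1 window also holds the start of Rab3il1, which lies on the opposite strand.

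Of the 10 genes, 3 had enough reads to be tested and 7 were low. Rdh5, Best1 and Pmel had at least 1 CPM in every library, whereas the other 7 had mean levels under 1 CPM in both groups. Among these 7, Rgr and Dct lay mostly above the floor, with over 3 reads in 5 and 6 of the 7 libraries. The rest lay near it. Per length of exon and depth (RPKM), over all libraries, the order of the levels was Rdh5 at 6.71, Best1 at 1.68, Pmel at 0.937, Rgr at 0.0949, Mlana at 0.0798, Ttr at 0.0774, Rpe65 at 0.0579, Dct at 0.0522, Tyrp1 at 0.0305 and Lrat at 0.00527. By mean CPM, Rdh5 ranked 8079 of the 40743 genes and Lrat ranked 30680. More than 3 reads were found for 8, 6 and 7 members in the unlasered libraries and for 5, 7, 5 and 3 members in the lasered libraries, ranges that overlap.

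**Figure D1:**
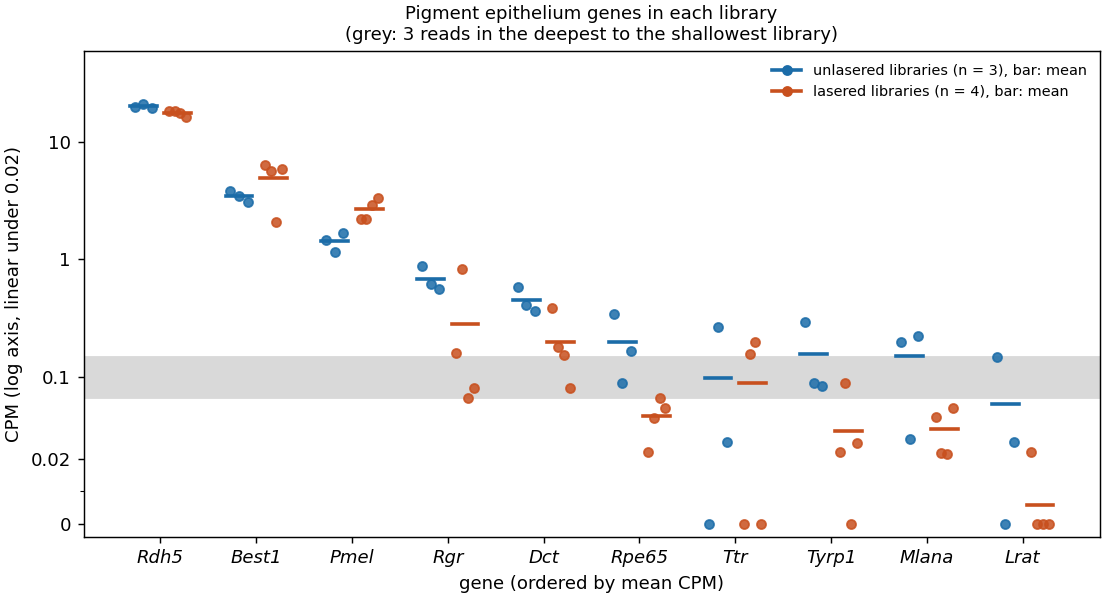
Level of each of the 10 genes in each library in CPM (log axis, linear under 0.02), with 3 unlasered and 4 lasered libraries as points and the range of 3 reads across libraries in grey. Rdh5, Best1 and Pmel lie above 1 CPM in every library. Of the other 7 genes, Rgr and Dct lie mostly above the grey band, and the rest scatter around or below it.

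No member passed the test between lasered and unlasered libraries. limma was applied to log2(CPM + 1) of 17496 genes that reached 1 CPM in 3 or more libraries, so only Rdh5, Best1 and Pmel were tested. At an adjusted p under 0.05, 0 of these 3 were called in either direction, where 6.93% of all tested genes were called and 3.07% were called lower in lasered libraries. At an unadjusted p under 0.05, 1 of the 3 passed, Pmel, beside 22.7% of all tested genes. Fitting edgeR to the whole reads recovered from the CPM, without a filter, brought all 10 members into the test and again called 0 of them, beside 3.16% of all genes, with only Pmel at an unadjusted p under 0.05, beside 18.1% of all genes. In limma without the filter 0 of 10 were called, beside 0.998% of all genes. An unadjusted p under 0.05 was found for 3, Pmel, Rpe65 and Mlana, beside 16.8% of all genes. In that fit the 7 members under the filter had adjusted p between 0.273 and 0.963.

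Rpe65 (chr3:159599175-159625321) encodes the isomerase that makes 11-cis retinol and is a defining marker of these cells. It was read at 0.343, 0.0876 and 0.167 CPM in the unlasered libraries and at 0.0227, 0.0445, 0.0653 and 0.0539 CPM in the lasered libraries. These levels stand for 7, 3 and 6 reads and for 1, 2, 3 and 2 reads. Every lasered library lay below every unlasered library, and over 3 reads were found in 2 of 3 unlasered and 0 of 4 lasered libraries. The mean was 0.199 ± 0.131 CPM (SD, n = 3) against 0.0466 ± 0.0181 CPM (SD, n = 4), and the ratio of the pooled read rates, lasered over unlasered, was 0.264 with an exact 95% counting interval of 0.0976 to 0.653. This interval covers counting error and no spread between mice, and in the edgeR fit without a filter the log2 fold change was -1.83 with an adjusted p of 0.294. In bulk samples, fewer cells of a type and less RNA per cell cannot be told apart.

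Among all 38566 genes with any read, 10.8% had every unlasered library above every lasered library. Of the 10 members, 2 had this order, Rpe65 and Rdh5.

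Lrat (chr3:82892579-82903973) encodes the acyltransferase that stores retinol as esters, the substrate of RPE65. It had 3, 0 and 1 reads in the unlasered libraries and 1, 0, 0 and 0 reads in the lasered libraries. It thus never rose above the floor, and the pooled ratio of 0.132 had a counting interval of 0.00268 to 1.33. It was 0.408 without unlasered library 1 and 0 without lasered library 1, which held the only lasered read. No difference was detectable at this depth. Lrat also lies within the span of the antisense gene Rbm46os, at 0.0218 to 0.685 CPM, without a shared exon.

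Rdh5 (chr10:128913593-128922888), an 11-cis retinol dehydrogenase, was listed at 20.0, 21.2 and 19.5 CPM in the unlasered libraries and at 18.5, 18.4, 17.8 and 16.5 CPM in the lasered libraries. The groups did not overlap, and their means were 20.2 ± 0.865 CPM (SD, n = 3) and 17.8 ± 0.935 CPM (SD, n = 4). The log2 fold change was -0.18 ± 0.14 (SE), with a 95% interval of -0.49 to 0.14 and an adjusted p of 0.508 in limma. Not all of these reads need be from Rdh5, because its entry adds reads shared with Bloc1s1, a gene for a subunit of a lysosome biogenesis complex that lies on the same strand. Exons of both genes overlap over 720 bases, and the division of the joint reads was not given. Reads listed for Bloc1s1 alone were between 4.16 and 4.67 CPM in unlasered and between 5.34 and 6.57 CPM in lasered libraries, the opposite order to that of the Rdh5 entry. Bloc1s1 and the other neighbours named here were chosen by position.

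Rgr (chr14:37034909-37048964) encodes an opsin of the pigment epithelium and Müller glia that photoisomerises all-trans retinal. It was read at 0.881, 0.613 and 0.555 CPM in unlasered libraries, with 18 to 21 reads in each. Lasered libraries had 0.159, 0.824, 0.0653 and 0.0808 CPM, from 7, 37, 3 and 3 reads. Lasered library 2 lay within the unlasered range and the other 3 lay below it. The pooled ratio of 0.447 (counting interval 0.300 to 0.662) became 0.157 without lasered library 2.

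Best1 (chr19:9985174-10001633), the calcium-activated chloride channel bestrophin 1 of the basolateral membrane, was read at 3.87, 3.45 and 3.08 CPM in unlasered libraries. Lasered libraries had 6.37, 5.66, 2.09 and 5.87 CPM. Thus 3 lasered libraries lay above all unlasered libraries and lasered library 3 lay below them. The means were 3.46 ± 0.393 CPM (SD, n = 3) and 4.996 ± 1.96 CPM (SD, n = 4). The log2 fold change was 0.35 ± 0.31 (SE), with a 95% interval of -0.35 to 1.05 and an adjusted p of 0.555 in limma. Without lasered library 3, the log2 fold change was 0.64 and the adjusted p in limma was 0.123.

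Best1 lies between highly read genes on the opposite strand. Fth1, the ferritin heavy chain, ends 75 bases away and was at 2675 to 5216 CPM, and Rab3il1 starts 35 bases away and was at 423 to 530 CPM. The library kit does not record strand. Best1 amounted to 0.102% to 0.118% of the Fth1 level in unlasered and 0.0524% to 0.158% in lasered libraries. The part of these neighbours in the Best1 level was not tested.

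Ttr (chr18:20665280-20674321) encodes transthyretin, the secreted carrier of thyroxine and of retinol-binding protein. It had 0, 9 and 1 reads in unlasered libraries and 0, 7, 9 and 0 reads in lasered libraries. Libraries with and without reads were thus found in both groups. The pooled ratio was 0.843 with a counting interval of 0.360 to 2.08, and it was 5.25 without unlasered library 2.

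The other 4 members belong to the melanosome, the organelle in which melanin is made on protein fibrils. Pmel (chr10:128704195-128720238), the amyloid protein of these fibrils, was read at 1.47, 1.17 and 1.67 CPM in unlasered and at 2.20, 2.23, 2.94 and 3.37 CPM in lasered libraries. All lasered libraries lay above all unlasered libraries. The means were 1.43 ± 0.251 CPM (SD, n = 3) and 2.68 ± 0.570 CPM (SD, n = 4), and the pooled ratio was 1.85 (counting interval 1.52 to 2.27). The log2 fold change on the CPM + 1 scale, which understates changes of low genes, was 0.59 ± 0.20 (SE), with a 95% interval of 0.14 to 1.04, an unadjusted p of 0.0164 and an adjusted p of 0.118 in limma. Among the 3 tested members, 2 had groups that did not overlap, Pmel and Rdh5, beside 21.0% of all tested genes.

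Pmel overlaps genes on the opposite strand at both ends. It shares 34 bases of exon with Cdk2, a cell cycle kinase at 17.8 to 33.1 CPM, and 105 bases with Dgka, a diacylglycerol kinase at 10.3 to 23.8 CPM. Without strand, reads from the shared bases cannot be told apart, and their part in the Pmel level was not tested.

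**Figure D2:**
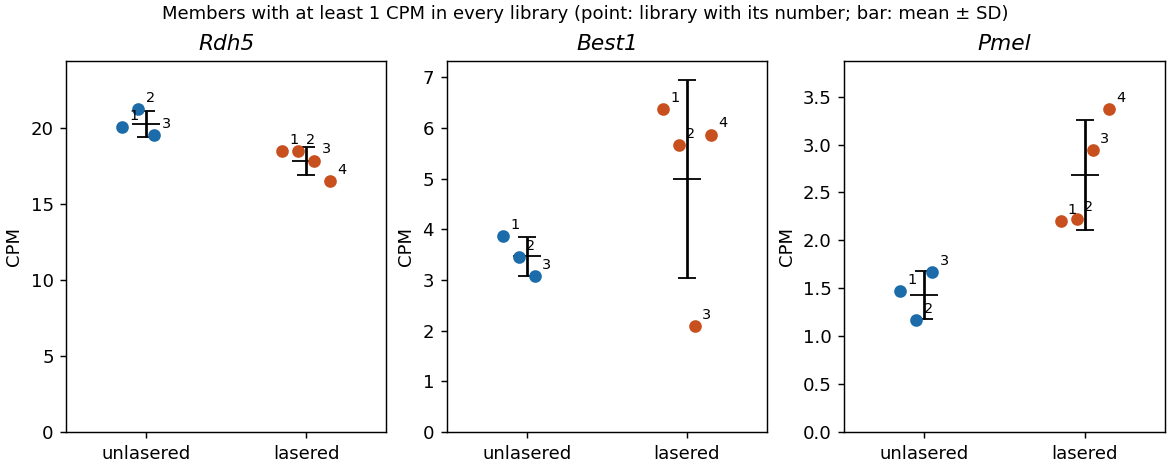
Levels in CPM of the 3 members with at least 1 CPM in every library, by group, with each point a library marked by its number and bars giving the mean ± SD. Pmel lies higher and Rdh5 slightly lower in all lasered libraries, and Best1 is higher in 3 of the 4 lasered libraries, with library 3 lowest of all.

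Tyrp1 (chr4:80834123-80851719) and Dct (chr14:118012790-118052244) encode enzymes that act after tyrosinase in eumelanin synthesis. Tyrp1 had 6, 3 and 3 reads in unlasered libraries and 1, 4, 0 and 1 reads in lasered libraries, or 0.155 ± 0.120 CPM (SD, n = 3) and 0.0347 ± 0.0382 CPM (SD, n = 4). Only 2 of the 7 libraries, 1 in each group, had over 3 reads, and the groups overlapped. The pooled ratio for Tyrp1 was 0.264 (counting interval 0.0811 to 0.759), with 0.119 without lasered library 2 and 0.408 without unlasered library 1.

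Dct was read at 0.587, 0.409 and 0.361 CPM in unlasered and at 0.385, 0.178, 0.152 and 0.0808 CPM in lasered libraries. Lasered library 1 lay within the unlasered range and the other 3 lay below it. The pooled ratio was 0.473 with a counting interval of 0.291 to 0.766, from 39 and 35 reads. Mlana (chr19:29697824-29708634) encodes a melanosomal protein that binds PMEL and serves as a tumour antigen in melanoma. It had 4, 1 and 8 reads in unlasered libraries and 2, 1, 1 and 2 reads in lasered libraries, and the groups overlapped. Its pooled ratio of 0.243 (counting interval 0.0758 to 0.686) ranged from 0.164 without unlasered library 2 to 0.381 without unlasered library 3.

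**Figure D3:**
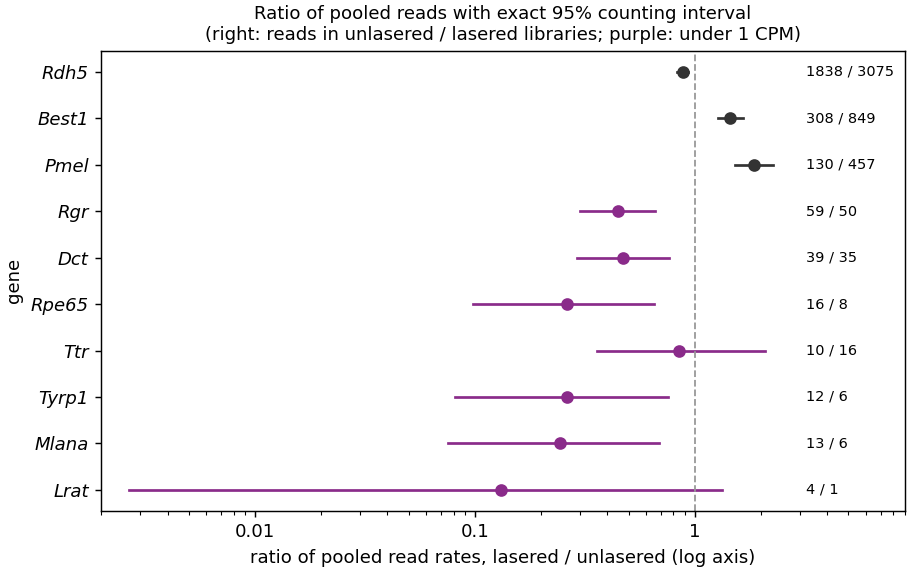
Ratio of pooled read rates, lasered over unlasered, for each member (log axis) with its exact 95% counting interval and the pooled reads of both groups at the right, genes under 1 CPM in purple. The intervals lie below 1 for Rpe65, Rdh5, Rgr, Tyrp1, Dct and Mlana, above 1 for Best1 and Pmel, and span 1 for Lrat and Ttr, and they hold counting error alone.

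The members differed in direction. The mean was lower in lasered libraries for 8 of the 10, beside 61.2% of all genes with any read, and higher for Best1 and Pmel. Of all tested genes, 51.6% had a negative log2 fold change. No such share was computed for genes under the filter alone. The sum of all 10, most of it Rdh5, was 26.9 ± 1.10 CPM (SD, n = 3) in unlasered and 26.2 ± 2.03 CPM (SD, n = 4) in lasered libraries, a ratio of 0.972. The 7 members under the filter, with Rgr and Dct highest, summed to 2.45, 1.49 and 1.44 CPM in unlasered and to 0.657, 1.31, 0.501 and 0.296 CPM in lasered libraries. These ranges did not overlap, although the reads behind them, 50 to 52 and 11 to 59, did. These 7 were grouped by their low level. Sums of other genes under the filter were not compared, so this order cannot be called particular to the members. Their pooled ratio was 0.420 (counting interval 0.329 to 0.537, from 153 and 122 reads), and it lay between 0.294 and 0.488 when any 1 library was left out.

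The genes whose levels were most alike to the summed members over the 7 libraries were Tigd2 (Pearson r = 0.976), Gm13091 (0.969), Glul (0.964), 5330426L24Rik (0.957) and Gm12729 (0.956), among 17493 genes compared. Since Rdh5 makes up most of the sum, and levels in 1 library share its depth, these values only describe the 7 libraries.

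The other 33 genes of the pigment epithelium in the lists fell into retinoid handling, melanosomes, and transport, junction and matrix proteins. Of the 33, 19 were tested, 0 were called higher and 2 were called lower in lasered libraries, and 8 had an unadjusted p under 0.05. Among all tested genes 6.93% were called, 3.07% were called lower and 22.7% had an unadjusted p under 0.05. The mean was lower in lasered libraries for 25 of the 33, beside 61.2% of all genes with any read. The groups did not overlap for 13 of the 33, beside 16.4% of all genes with any read, and both means were under 1 CPM for 13. The median log2 fold change was -0.42 for the 19 tested genes and -0.01 for all tested genes.

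Both genes called lower belong to the matrix. Sulf1, an extracellular sulfatase that trims heparan sulfate, was read at 1.96, 3.24 and 3.47 CPM in unlasered and at 0.952, 0.758, 0.283 and 0.458 CPM in lasered libraries. All lasered libraries lay below all unlasered libraries, with a log2 fold change of CPM + 1 of -1.27 ± 0.24 (SE) and an adjusted p of 0.0190 in limma. That scale understates the fold of low genes, and with edgeR the log2 fold change of Sulf1 was -2.23. Without lasered library 2 or 3, the adjusted p of Sulf1 in limma was 0.0570 or 0.0553, and with a replicate block it was 0.128.

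Efemp1, fibulin 3, a glycoprotein of Bruch's membrane and drusen, was read at 1.27, 1.02 and 4.61 CPM in unlasered and at 0.385, 0.0891, 0.0871 and 0.0808 CPM in lasered libraries. Its log2 fold change of CPM + 1 was -1.36 ± 0.34 (SE) with an adjusted p of 0.0479 in limma, and with edgeR the log2 fold change was -3.80. The call for Efemp1 was lost without any 1 of 6 libraries, all but unlasered library 2, with adjusted p between 0.0518 and 0.122 in limma, and with a replicate block it was 0.164.

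In retinoid handling, 0 of 7 genes were called, with 4 tested. Rdh11, a retinol dehydrogenase also used by photoreceptors, was highest, at 43.0 ± 9.06 CPM (SD, n = 3) in unlasered and 27.0 ± 3.21 CPM (SD, n = 4) in lasered libraries. The groups did not overlap for Rdh11, with a log2 fold change of -0.64 and an adjusted p of 0.0613 in limma. Rlbp1, the carrier of 11-cis retinoids in the pigment epithelium and Müller glia, was at 22.8 ± 8.64 CPM (SD, n = 3) and 16.8 ± 5.73 CPM (SD, n = 4), with overlapping groups and an adjusted p of 0.481 in limma.

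Of 12 melanosome genes, 8 were tested and 0 were called. Myo7a, a myosin that carries melanosomes, was highest, at 109 ± 23.9 CPM (SD, n = 3) and 119 ± 3.14 CPM (SD, n = 4), with an adjusted p of 0.638 in limma. Mitf, whose motif was counted in the promoters, is also a factor of macrophages and osteoclasts. It was read at 26.8, 29.3 and 42.6 CPM in unlasered and at 56.9, 56.5, 23.5 and 24.5 CPM in lasered libraries. Lasered libraries 1 and 2 were high and libraries 3 and 4 low, so that the groups overlapped, with an adjusted p of 0.790 in limma.

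Among the 14 transport, junction and matrix genes, Trpm3 and Otx2 had the highest means. Trpm3, a cation channel, was at 45.2, 42.0 and 33.1 CPM in unlasered and at 103, 95.1, 30.8 and 37.0 CPM in lasered libraries, with the same lasered libraries 1 and 2 high as for Mitf and an adjusted p of 0.497 in limma. Otx2, which is also a factor of photoreceptors and bipolar cells, was at 4.11, 62.7 and 7.66 CPM in unlasered and at 2.24, 1.76, 2.53 and 1.02 CPM in lasered libraries. Unlasered library 2 stood apart for Otx2, and without it the log2 fold change went from -2.32 to -1.24. The adjusted p of Otx2 in limma was 0.0921 with all libraries. It was 0.0420, 0.0595 and 0.0883 without unlasered libraries 1, 2 and 3, and 0.156 to 0.186 with 1 lasered library left out.

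**Figure D4:**
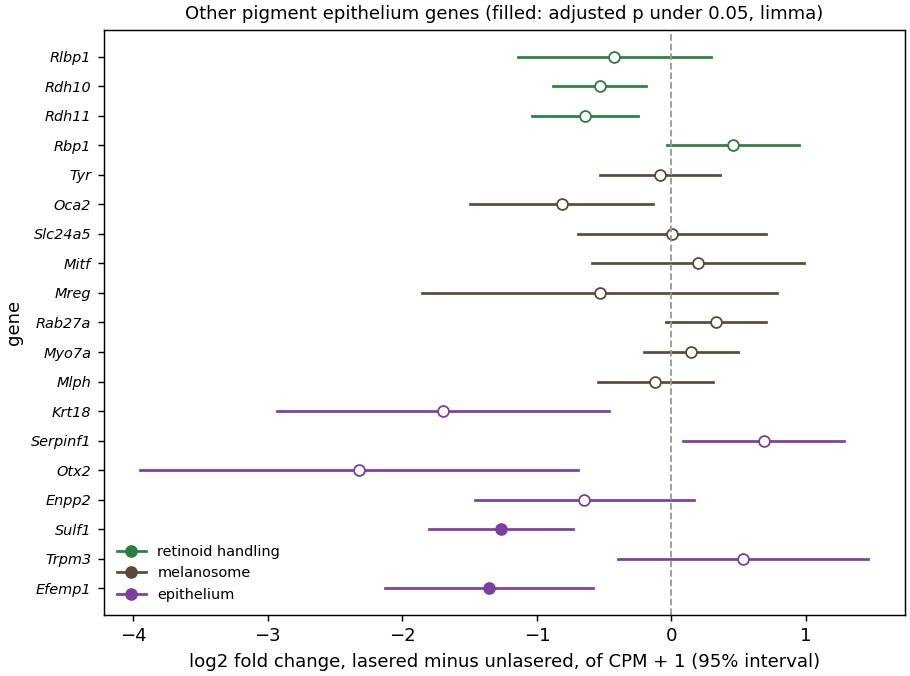
Log2 fold change, lasered minus unlasered, of CPM + 1 with its 95% interval for the tested genes among the 33 other pigment epithelium genes, filled where the adjusted p in limma was under 0.05. Only Sulf1 and Efemp1 are filled, both lower in lasered libraries.

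Rod markers were lower in the lasered libraries. The 15 rod genes were read in every library and summed to 2582, 21217 and 6169 CPM in unlasered and to 1330, 755, 1122 and 571 CPM in lasered libraries. All 15 were tested, 13 were called lower and 0 higher, with a median log2 fold change of -3.31. With a replicate block 0 of the 15 were called, and with 1 library left out 3 to 14 were called lower, the fewest without lasered library 2 (3), 3 (5) or 4 (7). With the filter, edgeR called 14 and DESeq2 called 15 of the rod genes lower. Without the filter, limma called 5 and edgeR called 1 lower, in the same fits that called 0 of the 10 members. Gnat1, rod transducin, was at 354, 4480 and 1319 CPM in unlasered and at 240, 106, 168 and 63.2 CPM in lasered libraries, with an adjusted p of 0.0359 in limma. The largest changes among those called were in Gngt1, Pdc, Pde6g and Rcvrn, all of rod phototransduction, with log2 fold changes between -4.15 and -3.63.

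Unlasered library 2 had the highest rod sum and 3 Rpe65 reads. The 7 members under the filter came to 0.00702% to 0.0948% of the rod sum in unlasered and 0.0446% to 0.174% in lasered libraries. The rod sum includes Gnb1, a G protein subunit, at 381, 1321 and 495 CPM in unlasered and at 339, 315, 318 and 253 CPM in lasered libraries. Gnb1 was thus a larger part of the rod sum in every lasered library. Whether its reads came from rods was not tested, so these percentages are not a measure of rod RNA alone. The part of rod RNA, or of the number of other cells in a sort, in the member levels was not tested.

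The Müller glia list summed to 646 to 944 CPM in unlasered and 280 to 591 CPM in lasered libraries. Of 7 genes, 6 were tested. Gfap, the intermediate filament of reactive glia, was called higher, at 0, 0 and 1.53 CPM in unlasered and 3.87, 2.18, 3.79 and 2.85 CPM in lasered libraries (adjusted p of 0.0311 in limma), and Dkk3, a secreted glycoprotein, was called lower (log2 fold change -0.91, adjusted p of 0.0138). Leaving out any 1 library but unlasered library 3 ended the Gfap call and kept the Dkk3 call, and a replicate block ended both. Gfap was also not called by edgeR (adjusted p 0.243), by DESeq2 (0.405), or by limma or edgeR without a filter. Dkk3 was called in all of these. The Gfap call held in limma with a pseudocount of 0.1, a filter of a mean of 10 reads or median-of-ratios scaling. Slc1a3, the glial glutamate transporter, and Glul, glutamine synthetase, were the highest and were not called. The 5 genes of choroid plexus and ciliary epithelium, which share Ttr with the pigment epithelium, summed to 8.13 to 33.2 CPM in unlasered and 1.29 to 2.003 CPM in lasered libraries. The only 1 of them tested, the water channel Aqp1, was called lower (log2 fold change -2.71, adjusted p of 0.0222 in limma), a call lost without lasered library 1, 2 or 3 or with a replicate block, and Clic6, an intracellular chloride channel, was not tested.

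For melanocytes, endothelium and stroma the summed levels overlapped between groups. The 4 melanocyte genes summed to 7.91 to 14.3 CPM in unlasered and 0.539 to 18.6 CPM in lasered libraries, most of it Ednrb and Kit, and Sox10, which defines the lineage and was named after its values were seen, was at 0 in 3 of 7 libraries and at most at 0.147 CPM. The 7 endothelial genes, with Pecam1 and Kdr highest, summed to 15.9 to 59.0 and 13.5 to 29.1 CPM. The 7 stromal genes, with Pdgfrb and Acta2 highest, summed to 2.25 to 4.45 and 2.65 to 4.15 CPM. None of these 18 genes was called in limma, with 7 of them tested, and edgeR without a filter called 1 stromal gene lower. The mean was lower in lasered libraries for 5 of 7 stromal, 3 of 4 melanocyte and 7 of 7 endothelial genes. Among all genes with any read, 61.2% had a lower lasered mean. The groups did not overlap for 3, 1 and 0 of them, beside 16.4% of all genes with any read. These were Col1a1, Col1a2, Dcn and Mc1r, all lower in lasered libraries and with both means under 1 CPM.

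**Figure D5:**
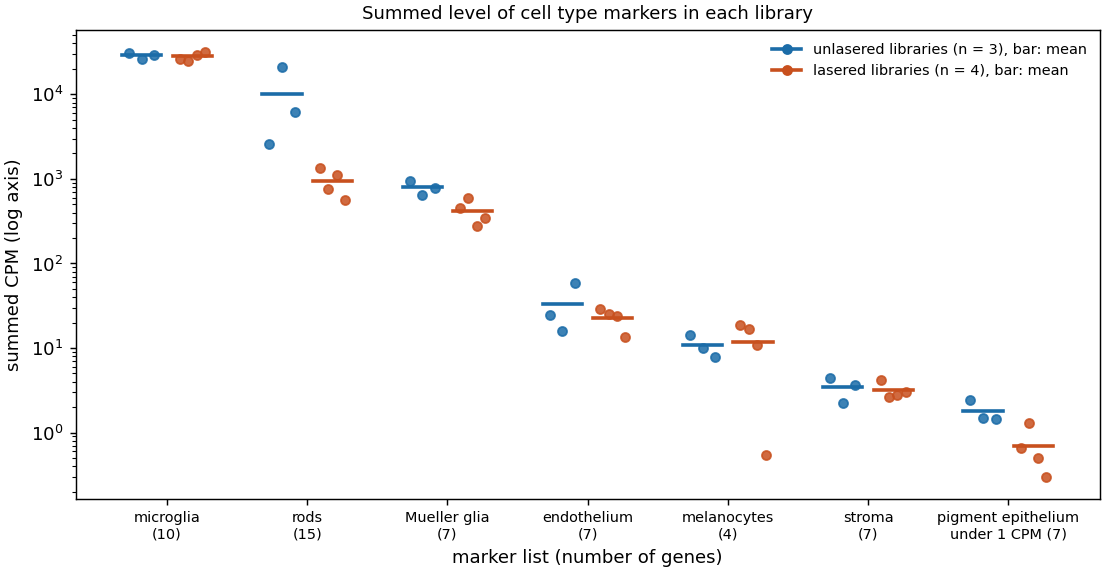
Summed CPM of each marker list (log axis) in each library, with 3 unlasered and 4 lasered libraries as points. The microglial sums lie close together. The sums of the rod list, the Müller glia list and the 7 pigment epithelium genes under 1 CPM lie lower in every lasered library. The endothelial, melanocyte and stromal sums overlap. These sums cover whole lists, whereas the pigment epithelium sum leaves out the members with at least 1 CPM.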

How the data were processed

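RNA-seq values of 7 libraries of sorted retinal microglia were analysed. The submitters' processing notes name Bowtie2, HTSeq, DESeq2, cutadapt and the build GRCm38, with duplicates removed per the study's methods. The deposited columns are headed TPM, but they hold CPM: in each library 100% of the values were whole multiples of 1 step, within 0.05 reads, and the reads recovered from them gave the totals. The table holds no columns of the authors' own comparisons. The SMARTer and Nextera XT kits do not record strand, and for 4492 genes some or all reads are assigned to more than 1 gene at once.

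Members and lists were chosen with earlier results of these data known. The comparison used limma 3.58.1 (R 4.3.3, statmod 1.5.0) on log2(CPM + 1), with its trend and robust options. Genes had to reach 1 CPM in 3 or more libraries, and two-sided p-values were adjusted after Benjamini-Hochberg over all genes tested. The test ran on CPM as set for normalized values. It was tested on simulated data. Genes under the filter were described by reads, with an exact 95% interval of the ratio of pooled rates. Each library was taken as a separate pool, and p-values measure the spread between these libraries, which may in part be technical.

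Alternatives were a pseudocount of 0.1, no filter, a filter of a mean of 10 reads, median-of-ratios scaling, edgeR 4.0.16 and DESeq2 1.42.0 on the recovered reads, a replicate block, each library left out, and edgeR without a filter, which was added after seeing the data. In the fit with a replicate block, lasered library 4 has no unlasered partner. It thus adds nothing to the fold change there, and that fit can call fewer genes. Named genes were the members, the genes of each list that passed (at most 4) and its 2 highest by mean, the 5 genes most alike to the summed members, and Irf8; 2 genes so named are not reported here. Coordinates are from GENCODE M21 (GRCm38) and promoters from RefSeq (GRCm38.p6). Other steps ran in Python 3.11.15 (scipy 1.17.1, numpy 2.4.6, pandas 2.3.3), and figures were drawn with matplotlib 3.10.9.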

Additional observations from a re-analysis of the deposited data

Results flagged for a closer look

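The values of the 4 lasered libraries were checked in the 10 members for a library far from the others, as its gap to the nearest library over the range of the group, against a limit of 0.829. Of the 10 groups checked, 3 passed. For continuous values chance gives about 1 in 20, a share that does not hold for genes with a few reads. Rgr was at 0.824 CPM in lasered library 2, a gap of 0.877 of the range. Best1 was at 2.09 CPM in lasered library 3, a gap of 0.834 of the range. Lrat was at 0.0227 CPM in lasered library 1, a gap of 1 of the range, which is 1 read against 0 in the other 3.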

How the results depend on the processing

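Under all 15 alternatives 0 members were called, and the direction of Rdh5, Best1 and Pmel was kept. Pmel had log2 fold changes of 0.50 to 1.04 (adjusted p 0.0959 to 0.282), Best1 of 0.23 to 0.65 (0.123 to 0.793) and Rdh5 of -0.20 to -0.06 (0.394 to 0.868). The number of all genes called, 1213, became 385 with no filter, 2318 with DESeq2, 3 with a replicate block and 262 to 1406 with 1 library left out, with 407, 262, 388 and 781 without lasered libraries 1 to 4. Of the other pigment epithelium genes, 2 were called, against 1 with no filter, 1 with a filter of a mean of 10 reads, 7 with DESeq2, 0 with a replicate block and 0 to 2 with 1 library left out (0 without lasered library 2 or 3, and 1 without lasered library 1 or 4 or unlasered library 3). Irf8 (log2 fold change -0.041) turned to 0.041 with median-of-ratios scaling and to 0.094 with edgeR without a filter, which moved the median gene by 0.12. The ratio of the summed members, 0.972, was 1.25 without Rdh5 and 0.950 to 1.01 with 1 library left out. Same-numbered libraries of both groups did not deviate together (r = -0.183, -0.126 and -0.0234), but so few pairs cannot exclude a shared sort or batch. Pmel had a log2 fold change of 0.50 (adjusted p 0.282, limma) in the fit with a replicate block, the same fold change as without lasered library 4. At the depth of these libraries, 7 of 10 members gave 0 to 37 reads each, too few for small differences to be detected. Larger ones could be missed too, as Rpe65 was not called at a log2 fold change of -1.83 (adjusted p 0.294, edgeR without a filter).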
